A study of Mus musculus with 12 samples.

Results

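The genes described are 10 that mark microglia, the resident macrophages of the brain, and macrophages of other tissues: Cx3cr1, P2ry12, Csf1r, Aif1, Tyrobp, Trem2, C1qa, C1qb, C1qc and Cd68. They were chosen by name, with earlier results of these data known. Each was found as 1 transcript cluster with a single gene symbol, so that 10 of 35556 transcript clusters (21218 of them with 1 symbol) are members. The data are Affymetrix whole-transcript arrays of mouse heart and cerebrum, 12 in all, from a study that asks whether phosphatidylserine (PS), a membrane phospholipid, changes gene expression in a model of familial dysautonomia (FD). The groups were heart of PS-treated mice, heart of mice given medium-chain triglycerides (MCT, the vehicle), cerebrum of PS-treated mice and cerebrum of MCT mice, with 3 arrays each. Every array carries the strain label C57BL/6J and the genotype label humanized knock-in IKBKAP FDloxP/+, so the vehicle mice have the same allele and no group without it was compared. Dosing started at 4 months of age and went on for 3 months by gavage on alternate days, with PS at 200 mg/kg in 100 µl. The labels conflict: one protocol text counts wild-type mice among the treated animals, the series text counts FD mice only, and the source names give the dose per day. The labels call the arrays biological replicates but do not tie tissues to animals, so p-values measure the spread between these arrays.

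Microglia and other tissue macrophages depend on the receptor Csf1r, which binds the growth factors CSF1 and IL-34. Microglia survey the brain with Cx3cr1, the receptor for fractalkine, and with the purine receptor P2ry12, while macrophages in heart are mostly of a different type that carries Lyve1, Folr2 and Mrc1. Trem2 signals through the adaptor Tyrobp (DAP12), C1qa, C1qb and C1qc encode the 3 chains of the complement starter C1q, Aif1 encodes the actin-binding protein Iba1 and Cd68 a lysosomal glycoprotein of phagocytes.

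The arrays had the expression of their labelled tissues: the mean of 3 neuronal markers was 4.36 to 4.69 in the 6 hearts and 11.26 to 11.70 in the 6 cerebra, and that of 4 cardiomyocyte markers was 11.82 to 12.13 in hearts and 5.73 to 6.14 in cerebra, on the log2 scale. Treatment and sex-linked expression moved together. The female pattern (Xist above Eif2s3y) was found on 3 of 3 heart PS arrays and 0 of 3 heart MCT arrays, and on 2 of 3 cerebrum PS arrays (not PS 2) and 0 of 3 cerebrum MCT arrays, so PS and sex pattern cannot be told apart in heart. Heart PS 2 had the female pattern and cerebrum PS 2 the male pattern, so these arrays were not of the same mouse. Striatal markers (7 genes) averaged 6.68, 6.77 and 9.08 on cerebrum PS 1, 2 and 3, against 9.72 to 9.95 in cerebrum MCT arrays. Oligodendrocyte markers (4 genes, 2 of them called lower) averaged 7.79, 8.06 and 8.15 on cerebrum PS arrays, below the 8.85, 9.02 and 8.32 on cerebrum MCT arrays. Of 4 choroid plexus markers, Ttr was 6.70, 4.34 and 6.60 on cerebrum PS arrays, against 10.82, 11.54 and 5.98 on cerebrum MCT arrays, so that MCT 1 and MCT 2 stood apart. The part of these markers in the cerebrum results was not tested. In bulk tissue, fewer macrophages and less RNA per macrophage cannot be told apart.

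Reference sequence upstream of 4 of the genes is shown because 2 of them, C1qb and C1qc, were high on the same arrays, and the other 2, Cx3cr1 and P2ry12, were lower in heart under both treatments. RefSeq promoter windows (GRCm38.p6) matched 7 of the 10 genes, not Csf1r, C1qa and Tyrobp. The 250 bases before the annotated start were searched on both strands for GAGGAA, one form of the sequence bound by the macrophage transcription factor PU.1 (Spi1). In the RefSeq annotation C1qb, C1qc and C1qa are direct neighbours on chromosome 4. The windows, all on the minus strand and written 5′ to 3′ along the gene, are chr4:136886201-136886450 for C1qb, chr4:136892915-136893164 for C1qc, chr9:120068297-120068546 for Cx3cr1 and chr3:59262986-59263235 for P2ry12, with GAGGAA or its complement TTCCTC in capitals.
C1qb: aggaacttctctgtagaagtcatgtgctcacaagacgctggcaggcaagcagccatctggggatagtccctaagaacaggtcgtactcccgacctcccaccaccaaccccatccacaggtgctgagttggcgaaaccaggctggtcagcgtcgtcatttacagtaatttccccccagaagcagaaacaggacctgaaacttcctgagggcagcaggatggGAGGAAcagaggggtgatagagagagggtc
C1qc: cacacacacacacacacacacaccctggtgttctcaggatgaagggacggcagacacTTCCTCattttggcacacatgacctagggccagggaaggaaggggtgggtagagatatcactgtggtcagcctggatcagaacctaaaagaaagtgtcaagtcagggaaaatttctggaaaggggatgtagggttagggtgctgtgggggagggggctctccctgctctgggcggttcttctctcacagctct
Cx3cr1: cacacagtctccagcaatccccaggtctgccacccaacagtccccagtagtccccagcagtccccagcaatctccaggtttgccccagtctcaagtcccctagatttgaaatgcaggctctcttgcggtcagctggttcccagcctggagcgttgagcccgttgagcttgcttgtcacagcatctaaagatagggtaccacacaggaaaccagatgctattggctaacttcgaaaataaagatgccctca
P2ry12: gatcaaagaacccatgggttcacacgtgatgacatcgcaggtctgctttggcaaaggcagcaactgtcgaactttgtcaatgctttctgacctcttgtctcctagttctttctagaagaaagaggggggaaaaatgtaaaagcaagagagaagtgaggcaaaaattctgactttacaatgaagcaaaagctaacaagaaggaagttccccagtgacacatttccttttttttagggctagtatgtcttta
C1qb and C1qc hold 1 match each and Cx3cr1 and P2ry12 hold 0. Shorter or variant forms were not searched, and GGAA alone occurs in the Cx3cr1 and P2ry12 windows as well. Among all 7 windows 5 hold a match, and 23.3% of the 32851 windows of the table do. A match of these letters is a description of the sequence only.

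Values below are log2 intensities of a gene's own transcript cluster, compared between arrays and not between genes. The 9 tested genes fell into those lower in heart (Cx3cr1, P2ry12, Csf1r), those that passed as higher in heart in MCT mice and not in PS mice (C1qa, C1qc, Tyrobp), Trem2, which passed as lower in heart in PS mice, and C1qb and Cd68, which passed under neither treatment. The limma test covered every transcript cluster with 1 symbol whose mean reached the 40th percentile, with p-values adjusted by Benjamini-Hochberg and a threshold of 0.05. Aif1 lay below that filter in every comparison and was not tested, which leaves 9 of the 10 genes tested.

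**Figure D1:**
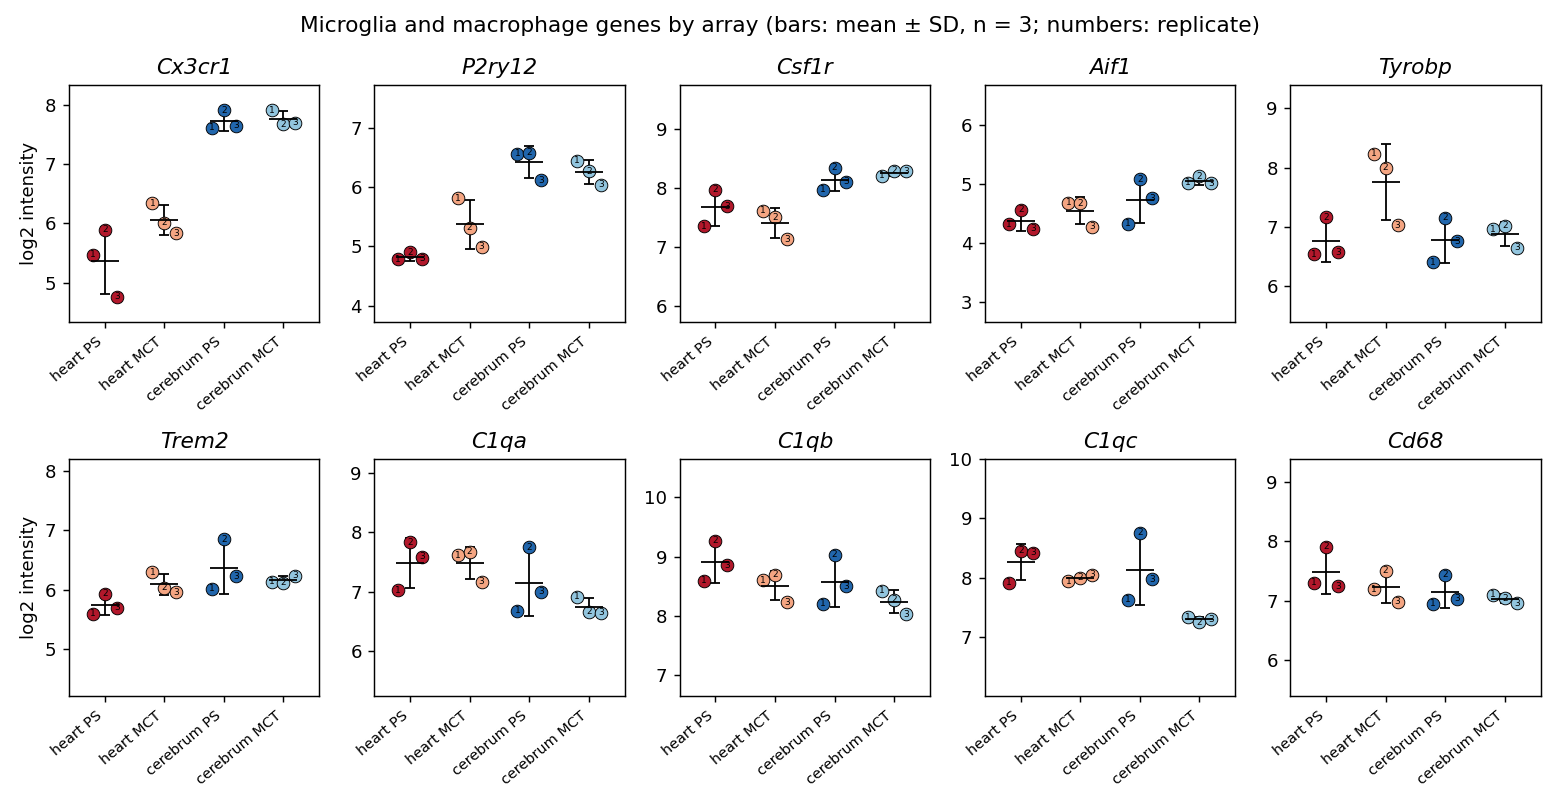
Log2 intensity (vertical axis, 4 units in every panel, with a different origin) of the 10 genes on each array of heart PS, heart MCT, cerebrum PS and cerebrum MCT mice. Points are arrays with their replicate number, and bars are the mean ± SD of 3 arrays. Cx3cr1 and P2ry12 are lower in all hearts than in all cerebra, and cerebrum PS 2 is the highest cerebrum for 8 of the 10 genes.

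Heart was set against cerebrum in each treatment to give the level of each gene in the tissues. In MCT mice 6 of 9 tested genes passed, 3 higher in heart (35.2% of all tested transcripts were called higher) and 3 lower (40.3% were called lower). In total 75.5% of 12734 transcripts passed, so the count of 6 of 9 is close to that of all transcripts. The groups did not overlap for the same 6 genes, where 79.2% of transcripts had no overlap. The median difference was 0.19 for the 9 genes and −0.07 over all transcripts tested.

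Of the 3 genes called lower in heart in MCT mice, Cx3cr1 had the lowest adjusted p. It was 6.34, 6.01 and 5.83 in heart MCT arrays, against 7.91, 7.67 and 7.70 in cerebrum MCT arrays. Every heart lay below every cerebrum, a difference of −1.70 ± 0.15 (SE), or 3.25-fold lower in heart (limma adjusted p = 9.63e-06). P2ry12 was 5.81, 5.31 and 4.99 in heart MCT arrays, against 6.44, 6.26 and 6.04 in cerebrum MCT arrays. The groups did not overlap, although heart MCT 1 came close to cerebrum MCT 3, and the difference was −0.88 ± 0.21 (adjusted p = 0.0044). Csf1r, the growth factor receptor of all macrophages, was 7.61, 7.5 and 7.13 in heart MCT arrays and 8.20, 8.29 and 8.28 in cerebrum MCT arrays. It was lower in heart without overlap, by −0.84 ± 0.14 (adjusted p = 0.000591). Aif1 was 4.68, 4.67 and 4.28 in heart MCT arrays, against 5.02, 5.13 and 5.01 in cerebrum MCT arrays. Its groups did not overlap, but these values lie in the dim range below the filter of 5.23.

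Complement and adaptor genes ran the other way in MCT mice. C1qa was 7.61, 7.67 and 7.17 in heart MCT arrays, against 6.91, 6.66 and 6.64 in cerebrum MCT arrays. It was higher in every heart, by 0.75 ± 0.16 (adjusted p = 0.00235). C1qc was 7.94, 8.0 and 8.05 in heart MCT arrays, against 7.33, 7.25 and 7.30 in cerebrum MCT arrays, again without overlap, with a difference of 0.70 ± 0.10 (adjusted p = 0.000226). C1qb was 8.60, 8.69 and 8.23 in heart MCT arrays and 8.42, 8.27 and 8.03 in cerebrum MCT arrays. Its groups overlapped and the difference of 0.27 ± 0.16 did not pass (adjusted p = 0.155), unlike that of its neighbours. Tyrobp was 8.23, 8.0 and 7.03 in heart MCT arrays, against 6.96, 7.02 and 6.65 in cerebrum MCT arrays. Heart MCT 3 was only just above the highest cerebrum, and the difference of 0.88 ± 0.28 passed (adjusted p = 0.0204). This call ended without heart MCT 1 (0.64), heart MCT 2 (0.75) or cerebrum MCT 3 (0.76). Trem2 at −0.07 ± 0.12 (95% interval −0.35 to 0.21) and Cd68 at 0.19 ± 0.15 (−0.14 to 0.52) did not pass. Without heart MCT 3, C1qb (0.405) and Cd68 (0.31) passed as well.

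In PS mice 4 of 9 tested genes passed, 0 higher in heart and 4 lower, where 75.9% of 12732 transcripts passed, 38.3% higher and 37.6% lower. Groups did not overlap for 3 of the 9, against 79.9% of transcripts. Cx3cr1 was 5.47, 5.89 and 4.76 in heart PS arrays, against 7.61, 7.91 and 7.65 in cerebrum PS arrays. The gap between the lowest cerebrum and the highest heart was larger than the spread within either group, and the difference was −2.35 ± 0.26, or 5.1-fold lower in heart (adjusted p = 9.12e-05). P2ry12 was 4.78, 4.90 and 4.79 in heart PS arrays and 6.56, 6.58 and 6.11 in cerebrum PS arrays, a difference of −1.59 ± 0.14 (adjusted p = 2.12e-05). Every heart PS value of P2ry12 lay below the filter of 5.22, so the cerebrum arrays carried it past the filter and the size is approximate. Its place among the 4 lower genes and the 3 without overlap is therefore no support for a direction. Trem2, the lipid-sensing partner of Tyrobp, was 5.59, 5.93 and 5.69 in heart PS arrays, against 6.01, 6.85 and 6.22 in cerebrum PS arrays. The groups did not overlap and the difference was −0.62 ± 0.21 (adjusted p = 0.0296), a call that ended without heart PS 1 (−0.55) or heart PS 3 (−0.60). Csf1r was 7.35, 7.97 and 7.69 in heart PS arrays and 7.97, 8.34 and 8.10 in cerebrum PS arrays. Heart PS 2 equalled cerebrum PS 1, and the difference of −0.47 ± 0.17 passed narrowly (adjusted p = 0.0387). It did not pass without heart PS 1 (−0.31), cerebrum PS 2 (−0.365), heart PS 3 (−0.48) or cerebrum PS 3 (−0.485), nor without the filter.

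Tyrobp and the C1q genes did not differ between tissues past the threshold in PS mice. Tyrobp was 6.54, 7.16 and 6.57 in heart PS arrays and 6.40, 7.15 and 6.76 in cerebrum PS arrays, with a difference of −0.01 (95% interval −0.55 to 0.53). The groups lay on top of each other, with the array numbered PS 2 high in both, although these arrays were of different mice. The intervals were −0.37 to 1.05 for C1qa, −0.24 to 0.90 for C1qb, −0.54 to 0.82 for C1qc and −0.14 to 0.83 for Cd68, and each of them includes the difference found in MCT mice. Without cerebrum PS 2, C1qa (0.64) and C1qb (0.55) passed. Leaving out PS 2 of both tissues, an alternative chosen after the data were seen, also left 4 genes past the threshold.

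**Figure D2:**
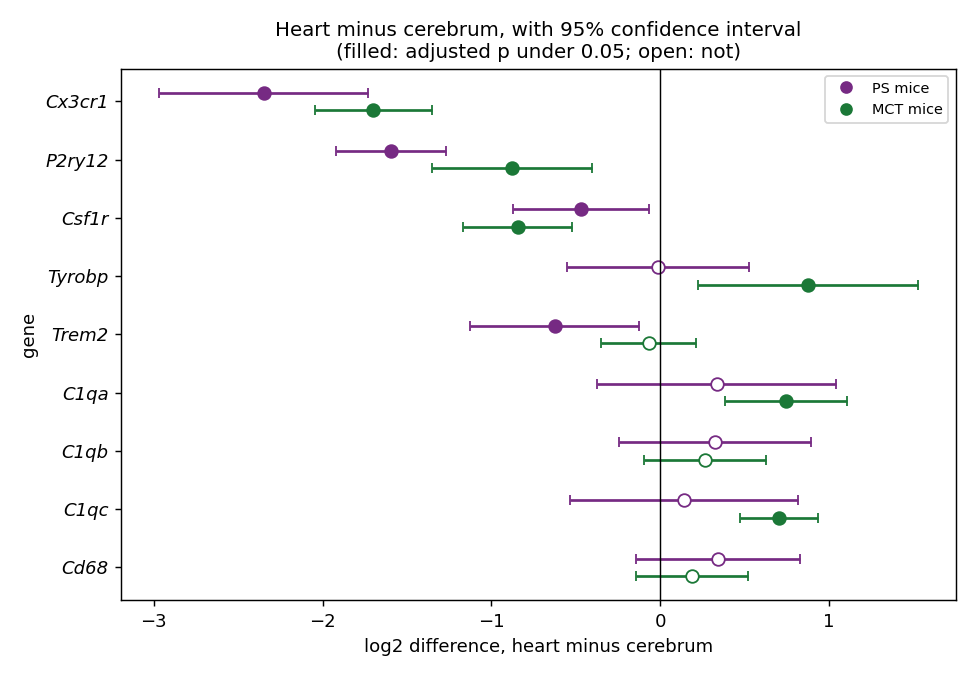
Log2 difference, heart minus cerebrum (horizontal axis), for the 9 tested genes in PS mice and MCT mice, with 95% confidence intervals from limma. Filled points passed an adjusted p of 0.05. Cx3cr1, P2ry12 and Csf1r are filled and left of 0 in both treatments, while C1qa, C1qc and Tyrobp are filled and right of 0 in MCT mice.

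Genes of other macrophage lists differed between the tissues as well. Over 8 such lists 45 of 63 tested genes passed in PS mice (71.4%, against 75.9% of all transcripts) and 45 of 58 in MCT mice (77.6%, against 75.5%). Of 16 genes of border and tissue macrophages 9 were tested, and these 9 were higher in heart under both treatments, where 38.3% of transcripts in PS mice and 35.2% in MCT mice were called higher. The filter is on the mean of both tissues, and 5 of the 9 in PS mice and 7 of the 9 in MCT mice had a cerebrum mean below it, so that heart carried them past it and the count of 9 is no support for a direction. The hyaluronan receptor Lyve1 averaged 8.98 in heart PS and 5.23 in cerebrum PS arrays, and 7.71 in heart MCT and 4.89 in cerebrum MCT arrays. The coagulation factor gene F13a1 averaged 8.19 in heart PS and 4.99 in cerebrum PS arrays, and 8.44 in heart MCT and 4.55 in cerebrum MCT arrays. For F13a1, for the chemokine Pf4 and for the mannose receptor Mrc1 the cerebrum means of both treatments lay below the filter, so the sizes are approximate. Adgre1, which encodes the macrophage marker F4/80, lay above the filter in both tissues and was higher in heart by 0.84 in PS mice and 0.76 in MCT mice. Of the homeostatic microglia list, 5 of 11 tested genes were lower and 2 higher in heart of PS mice, and 6 of 10 lower and 1 higher in heart of MCT mice. Of all transcripts 37.6% in PS mice and 40.3% in MCT mice were called lower. Siglech (−1.59 and −1.77), the purine receptor P2ry13 (−1.67 and −1.55) and the transcription factor Sall1 (−1.0 and −0.94) were lower, while Olfml3 was higher by 1.23 and 1.21, giving PS mice first and MCT mice second. The heart means of Siglech and Sall1 lay below the filter under both treatments, so cerebrum carried them past it. Their sizes are approximate too, and their place in the lower counts is no support for a direction. Some of these genes are also made by other cells, such as Lyve1 by lymphatic and Stab1 by sinusoidal endothelium.

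The ligands of the receptors differed between the tissues too. Cx3cl1, which encodes fractalkine, the ligand of Cx3cr1 and in brain a product of neurons, was lower in heart by −3.70 ± 0.24 in PS mice and −3.67 ± 0.13 in MCT mice. Of the ligands of Csf1r, Il34 was lower in heart (−2.22 in PS mice, −2.43 in MCT mice) and Csf1 higher (1.35 and 1.02). Il34 was 4.74, 5.08 and 4.70 in heart MCT arrays, all below the filter of 5.23, so cerebrum carried it past the filter there. Its size in MCT mice is approximate and its place there is no support for a direction. Spi1, the gene of PU.1, was 5.87, 6.74 and 5.84 in heart PS arrays and 5.39, 5.91 and 5.40 in cerebrum PS arrays, and 6.16, 6.14 and 5.87 in heart MCT arrays and 5.67, 5.50 and 5.52 in cerebrum MCT arrays. It passed as higher in heart in MCT mice (0.49) and not in PS mice (0.58, adjusted p = 0.0761). Of the kinases and lipases downstream of Tyrobp, Syk (2.07 and 1.95) and Plcg2 (1.55 and 1.09) were higher in heart, although neither is restricted to macrophages. Syk lay below the filter on every cerebrum array of both treatments, so heart carried it past the filter. Its sizes are approximate and its place is no support for a direction. Of complement genes outside the list of 10, the receptor C3ar1 was higher in heart by 1.45 in PS mice and 1.42 in MCT mice.

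PS was set against MCT in heart, the first of the comparisons the study asks about. In limma 0 of 9 tested genes passed, where 0.330% of 12736 transcripts passed, and at an unadjusted p under 0.05 the counts were 4 of 9 genes and 23.7% of transcripts. All 4 had lower means with PS (10.3% of transcripts had, at that p): Tyrobp, Cx3cr1, P2ry12 and Trem2. Of these, P2ry12 reached the filter only through its MCT arrays. The median difference over the 9 genes was −0.0033, against 0.06 over all transcripts.

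Tyrobp had the largest difference of the 9. It was 6.54, 7.16 and 6.57 in heart PS arrays, against 8.23, 8.0 and 7.03 in heart MCT arrays. The groups overlapped, since PS 2 lay above MCT 3, and the difference was −0.997 ± 0.32 (limma adjusted p = 0.144). Its partner Trem2 was 5.59, 5.93 and 5.69 in heart PS arrays, against 6.29, 6.03 and 5.95 in heart MCT arrays, without overlap but with PS 2 and MCT 3 only just apart (−0.35 ± 0.15, adjusted p = 0.197). P2ry12 was 4.78, 4.90 and 4.79 in heart PS arrays and 5.81, 5.31 and 4.99 in heart MCT arrays. The PS values were nearly equal and the MCT values spread over a range wider than the difference (−0.55 ± 0.20, adjusted p = 0.171). Every PS value lay below the filter of 4.935, so the MCT arrays carried P2ry12 past it and the size is approximate. Its place among the lower genes and among those without overlap is therefore no support for a direction. Cx3cr1 was 5.47, 5.89 and 4.76 in heart PS arrays, against 6.34, 6.01 and 5.83 in heart MCT arrays, with PS 2 inside the MCT range (−0.69 ± 0.28, adjusted p = 0.191). Groups did not overlap for 2 of the 9 genes, P2ry12 and Trem2, where 28.4% of transcripts had no overlap. Without heart MCT 3, which was the lowest MCT array for all 4 of these genes, Tyrobp (−1.36) and P2ry12 (−0.74) passed, and over all transcripts the count was then 3416 instead of 42. Tyrobp also passed without MCT 3 and PS 3 together (−1.265), the hearts with the highest atrial marker means (7.83 in PS 3 and 8.35 in MCT 3, against 6.62 and 7.08 in PS 1 and PS 2 and 6.91 and 7.13 in MCT 1 and MCT 2).

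The other genes had differences near 0 or above it. Csf1r was 7.35, 7.97 and 7.69 in heart PS arrays and 7.61, 7.5 and 7.13 in heart MCT arrays (0.26 ± 0.19). C1qb was 8.59, 9.27 and 8.85 in heart PS arrays, against 8.60, 8.69 and 8.23 in heart MCT arrays (0.40 ± 0.20, adjusted p = 0.262). C1qc was 7.91, 8.45 and 8.42 in heart PS arrays and 7.94, 8.0 and 8.05 in heart MCT arrays (0.26 ± 0.16). In both, PS 2 and PS 3 lay above the MCT arrays, while PS 1 lay within their range for C1qb and just below it for C1qc. C1qa was 7.02, 7.83 and 7.59 in heart PS arrays and 7.61, 7.67 and 7.17 in heart MCT arrays, with nearly equal means and a 95% interval of −0.53 to 0.52. Cd68 was 7.30, 7.91 and 7.24 in heart PS arrays, against 7.19, 7.5 and 6.98 in heart MCT arrays (0.26 ± 0.21). Aif1, not tested, was 4.32, 4.56 and 4.24 in heart PS arrays and 4.68, 4.67 and 4.28 in heart MCT arrays. None of these groups was free of overlap.

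Within heart, PS 2 differed from PS 1 and PS 3. It was the highest of the 6 hearts for 5 of the 10 genes, and heart MCT 1 for the other 5. The mean of 5 fibroblast markers was 1.55 above the MCT mean in heart PS 2, against 0.06 in PS 1 and 0.24 in PS 3, and their part in the result was not tested. Tmem119, a microglial marker that is also made by bone-forming and stromal cells, was 7.51 in heart PS 2, with 5.33 and 5.76 on PS 1 and PS 3, against 5.13, 5.15 and 5.77 in heart MCT arrays. The mean of 6 endothelial markers was higher in every heart PS array (8.94, 9.22 and 9.02) than in every heart MCT array (8.20, 8.54 and 8.69). Of 8 monocyte and neutrophil markers the mean ranged from 4.62 to 5.24 with PS and from 4.91 to 5.24 with MCT, and that of 7 lymphocyte markers from 4.28 to 4.70 and from 4.51 to 4.78. Ccr2, the chemokine receptor of monocytes, was 3.95, 4.90 and 4.20 in heart PS arrays and 4.48, 3.87 and 4.42 in heart MCT arrays, all below the filter of 4.935.

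Further macrophage lists gave no call in heart. Over the 8 lists 0 of 72 tested genes passed, and 57.9% of all tested transcripts had a higher mean with PS. Of 13 tested border and tissue macrophage genes 6 were higher and 7 lower with PS, with a median of −0.04, and at an unadjusted p under 0.05 the counts were 1 higher and 4 lower. Lyve1 was 8.61, 9.23 and 9.09 in heart PS arrays, against 7.56, 8.06 and 7.5 in heart MCT arrays (1.27 ± 0.21, adjusted p = 0.0757), above all MCT arrays but not past the threshold. Pf4 was 7.0, 6.76 and 6.81 in heart PS arrays and 7.86, 7.86 and 7.01 in heart MCT arrays (−0.72 ± 0.23, adjusted p = 0.147). The chemokine Ccl24 was 4.85, 4.66 and 4.87 in heart PS arrays and 5.66, 5.42 and 5.05 in heart MCT arrays (−0.58 ± 0.17, adjusted p = 0.134). In Pf4 and Ccl24 every PS array lay below every MCT array. Every PS value of Ccl24 lay below the filter of 4.935, so the MCT arrays carried it past the filter. Its lower mean is therefore no support for a direction. The lectin gene Cd209f (−0.79, adjusted p = 0.156) and the folate receptor Folr2 (−0.82, adjusted p = 0.181) were the other two with a lower mean at that p, with groups that overlapped. Of 11 tested activation genes 7 were higher and 4 lower, with a median of 0.09. The beta-glucan receptor Clec7a was 4.20, 4.83 and 4.46 in heart PS arrays, against 5.92, 5.33 and 5.14 in heart MCT arrays, below all of them (−0.97 ± 0.24, adjusted p = 0.122). Its PS values too lay below the filter of 4.935, so the same limit holds and the size is approximate. Axl had a difference of 0.89 ± 0.20 (adjusted p = 0.119). Of the homeostatic microglia list 10 of 11 tested genes were higher with a median of 0.18, and the purine receptor P2ry13 was the one lower (−0.33). Of 9 tested complement genes 8 were higher with a median of 0.43, among them properdin, Cfp (0.53), and the C1 inhibitor Serping1 (0.71). Of 8 tested genes of Trem2 and Tyrobp signalling 7 were higher with a median of 0.13, the phosphatase Inpp5d (0.66) and Plcg2 (0.55) with the lowest p. The ATP-degrading enzyme gene Entpd1 (0.76, adjusted p = 0.0963), Nt5e (0.64, adjusted p = 0.099) and the Csf1r ligand Il34 (0.69, adjusted p = 0.119) had higher means that did not pass either. Il34 was 4.74, 5.08 and 4.70 in heart MCT arrays, with a mean below the filter of 4.935, so the PS arrays carried it past the filter. Its higher mean is therefore no support for a direction.

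PS was set against MCT in cerebrum, the comparison that holds the brain's own macrophages. In limma 0 of 9 tested genes passed, where 5.76% of 12733 transcripts passed, and at an unadjusted p under 0.05 the counts were 1 of 9 genes and 29.0% of transcripts. That gene was C1qc, which was also the only one of the 9 whose groups did not overlap, where 32.8% of transcripts had no overlap. The median difference was 0.17 for the 9 genes and −0.03 over all transcripts.

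The C1q genes were highest in PS 2. C1qc was 7.63, 8.76 and 7.97 in cerebrum PS arrays, against 7.33, 7.25 and 7.30 in cerebrum MCT arrays. All 3 PS arrays lay above the MCT arrays, PS 1 by the least, with a difference of 0.83 ± 0.25, or 1.77-fold (limma adjusted p = 0.0878). C1qb was 8.20, 9.03 and 8.50 in cerebrum PS arrays and 8.42, 8.27 and 8.03 in cerebrum MCT arrays (0.34 ± 0.21, adjusted p = 0.318). C1qa was 6.68, 7.75 and 7.0 in cerebrum PS arrays, against 6.91, 6.66 and 6.64 in cerebrum MCT arrays (0.41 ± 0.25, adjusted p = 0.316). PS 2 and PS 3 exceeded every MCT array in these genes, and PS 1 lay within the MCT range for C1qa and C1qb. Averaged over the 3 genes, PS 2 lay 1.09 above the MCT mean, PS 3 0.40 and PS 1 0.08. Without PS 2 the difference of C1qc was 0.51.

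The receptors of microglia differed little in mean. Cx3cr1 was 7.61, 7.91 and 7.65 in cerebrum PS arrays and 7.91, 7.67 and 7.70 in cerebrum MCT arrays, a difference of −0.04 with a 95% interval of −0.30 to 0.22. P2ry12 was 6.56, 6.58 and 6.11 in cerebrum PS arrays, against 6.44, 6.26 and 6.04 in cerebrum MCT arrays, with an interval of −0.19 to 0.53. Csf1r was 7.97, 8.34 and 8.10 in cerebrum PS arrays and 8.20, 8.29 and 8.28 in cerebrum MCT arrays, with an interval of −0.37 to 0.13. In each of these the PS arrays overlapped the MCT arrays, and PS 2 was the highest PS array. Tyrobp was 6.40, 7.15 and 6.76 in cerebrum PS arrays, against 6.96, 7.02 and 6.65 in cerebrum MCT arrays (−0.55 to 0.34), and Trem2 was 6.01, 6.85 and 6.22, against 6.13, 6.11 and 6.23 (−0.26 to 0.67). Cd68 was 6.95, 7.44 and 7.03 in cerebrum PS arrays and 7.10, 7.04 and 6.96 in cerebrum MCT arrays (−0.20 to 0.42). Aif1, not tested, was 4.33, 5.08 and 4.76 in cerebrum PS arrays and 5.02, 5.13 and 5.01 in cerebrum MCT arrays, lower in PS 1 and PS 3 than in any MCT array.

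PS 2 stood apart from the other cerebra over the whole group. It was above every MCT array for 8 of the 10 genes and the highest of 6 cerebra for 8, while PS 1 was below every MCT array for 6 and the lowest of 6 for 6. Relative to MCT, the 10 genes averaged −0.13 on PS 1, 0.52 on PS 2 and 0.045 on PS 3. With the sex pattern in the fit, so that PS 2 alone is set against the 3 MCT arrays of the same male pattern, 3 genes passed: C1qc (1.47), C1qa (1.01) and Trem2 (0.69). Over all transcripts 799 passed in that fit, against 734 without the covariate. The 3 calls rest on 1 PS array, which is taken to vary like the others. Beside this, the mean of 8 monocyte and neutrophil markers was 0.11, 0.68 and 0.52 above the MCT mean in PS 1, PS 2 and PS 3. Without Lcn2, the 1 of the 8 that reached the filter, the other 7 averaged −0.0029, 0.17 and 0.27 relative to MCT, an alternative chosen after the data were seen. The mean of 7 lymphocyte markers was 0.06, 0.28 and 0.13 above the MCT mean, and that of 6 endothelial markers 0.50, 0.61 and 0.02. Lcn2, the secreted iron-binding lipocalin that neutrophils and reactive astrocytes make, was 5.21, 8.58 and 6.64 in cerebrum PS arrays, against 4.33, 3.75 and 4.94 in cerebrum MCT arrays (adjusted p = 0.0875). Every cerebrum MCT value of Lcn2 lay below the filter of 5.04, so the PS arrays carried it past the filter. Its higher mean is therefore no support for a direction. The neutrophil gene S100a8 was 3.95, 4.28 and 4.71 in cerebrum PS arrays and 3.98, 3.82 and 3.97 in cerebrum MCT arrays, and S100a9 was 4.30, 4.60 and 4.80, against 4.37, 4.26 and 4.65, all below the filter of 5.04.

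**Figure D3:**
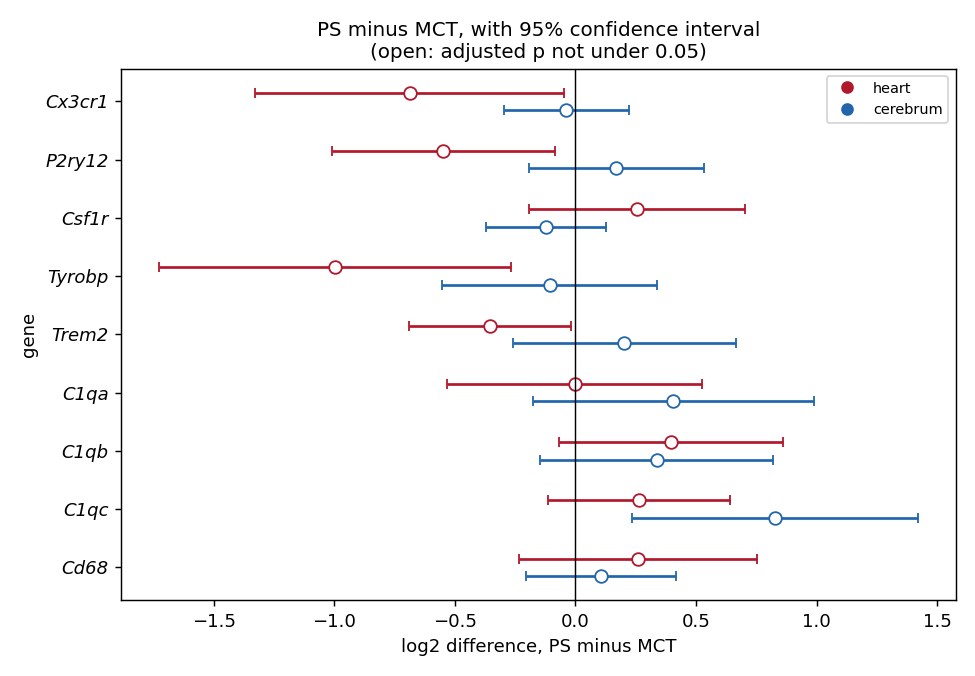
Log2 difference, PS minus MCT (horizontal axis), for the 9 tested genes in heart and in cerebrum, with 95% confidence intervals from limma. No point is filled, as 0 of 9 passed an adjusted p of 0.05 in either tissue. Tyrobp, Cx3cr1, P2ry12 and Trem2 have intervals below 0 in heart, and C1qc one above 0 in cerebrum.

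In cerebrum 4 of 50 tested genes of the further lists passed, a share of 8.0% where 5.76% of all transcripts passed. The lists were chosen with earlier results of these data known, so the share is no test of them. Of 8 tested genes of microglial activation 2 fell, the lipoprotein lipase Lpl by 0.71 (adjusted p = 0.0443) and the receptor kinase Axl, which binds phosphatidylserine through a bridging protein, by 0.37 (adjusted p = 0.0461). Cfp rose by 0.51 (adjusted p = 0.0314): it was 5.97, 5.94 and 5.92 in cerebrum PS arrays and 5.30, 5.48 and 5.51 in cerebrum MCT arrays. Nt5e, the ecto-enzyme CD73 that makes adenosine, fell by 1.08 (adjusted p = 0.0354), from a list whose other 3 tested genes did not pass. Nt5e was 4.63, 5.28 and 5.43 in cerebrum PS arrays, against 6.23, 6.32 and 6.04 in cerebrum MCT arrays, and the striatal, oligodendrocyte and choroid plexus markers differed between the same arrays, as given above. Their part in the result was not tested. All 4 calls ended without cerebrum MCT 1, MCT 2, PS 1 or PS 2: the values ranged from −1.17 to −0.84 for Nt5e, −0.395 to −0.34 for Axl, −0.72 to −0.545 for Lpl and 0.45 to 0.54 for Cfp in those fits. Lpl also did not pass without MCT 3 (−0.75) and Axl without PS 3 (−0.36). With the sex pattern as a covariate none of the 4 passed either (limma adjusted p = 0.093 for Nt5e, 0.088 for Axl, 0.109 for Lpl and 0.0569 for Cfp). The same held with all transcript clusters in the fit (0.0639, 0.0767, 0.0757 and 0.0554, in that order). Axl and Lpl also did not pass with no filter (0.0518 and 0.0587) or a filter at the 20th percentile (0.0525 and 0.0512), nor Axl in a fit over all 12 arrays (0.235). Of 11 tested homeostatic microglia genes 6 were higher and 5 lower, and 0 passed. Fcrls was 4.90, 6.68 and 4.97 in cerebrum PS arrays and 4.79, 4.41 and 4.92 in cerebrum MCT arrays. It was high in PS 2 alone, which carried it past the filter of 5.04, so its higher mean is no support for a direction. The Csf1r ligand Il34 was 7.68, 7.74 and 7.82 in cerebrum PS arrays, against 7.26, 6.96 and 7.60 in cerebrum MCT arrays (0.47, adjusted p = 0.0986). Of 6 tested genes of lysosome and scavenging 0 were higher and 6 lower, with a median of −0.15 and 0 past the threshold, where 54.7% of all transcripts had a lower mean.

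**Figure D4:**
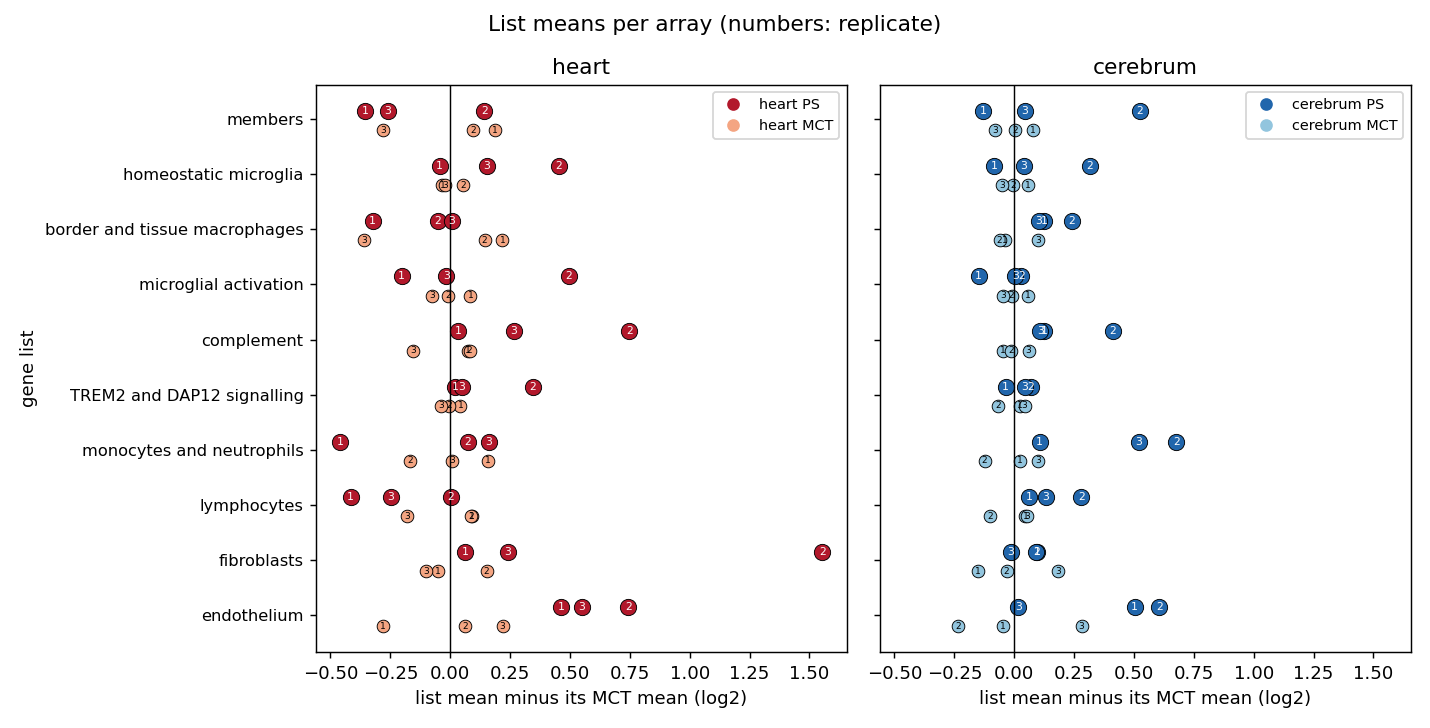
Mean of each gene list on each array minus its mean over the MCT arrays of the same tissue (horizontal axis, log2), for heart and cerebrum, with PS arrays above MCT arrays in each row and numbers for replicates. In both tissues PS 2 lies to the right of PS 1 and PS 3 for the 10 genes, homeostatic microglia, microglial activation and complement. The same holds for TREM2 and DAP12 signalling, lymphocytes and endothelium, and for fibroblast markers in heart (1.55).

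Whether the PS effect differed between heart and cerebrum was tested as the difference of the PS effects over all 12 arrays. In limma 0 of 9 tested genes passed, where 1.52% of 12731 transcripts passed, and 2 of 9 had an unadjusted p under 0.05 (19.2% of transcripts had). These were P2ry12, at −0.72 ± 0.27 (adjusted p = 0.179), and Tyrobp, at −0.89 ± 0.41 (adjusted p = 0.256), both with a lower PS effect in heart. The heart PS values of P2ry12 lay below the filter of this fit (5.23), so its size is approximate. Tyrobp, which passed as higher in heart in MCT mice and not in PS mice, therefore has no difference between the treatments that passed a test of its own. Trem2 was at −0.56 ± 0.26, Cx3cr1 at −0.65 ± 0.33 and C1qc at −0.56 ± 0.32, and C1qb was near 0 at 0.06 ± 0.31. The median over the 9 genes was −0.56, against 0.07 over all transcripts. Without heart MCT 3, P2ry12 (−0.91) and Tyrobp (−1.25) passed, and over all transcripts the count was then 1629 instead of 194.

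Ordered by mean, the groups ran as follows. For Cx3cr1 the order was cerebrum MCT (7.76 ± 0.13, SD), cerebrum PS (7.72 ± 0.16), heart MCT (6.06 ± 0.26) and heart PS (5.37 ± 0.57), and only the step between the tissues had no overlap. P2ry12 ran from cerebrum PS (6.42 ± 0.27) over cerebrum MCT (6.25 ± 0.20) and heart MCT (5.37 ± 0.41) to heart PS (4.82 ± 0.07), with no overlap at the last 2 steps. C1qc was highest in heart PS (8.26 ± 0.30), then cerebrum PS (8.12 ± 0.58) and heart MCT (8.0 ± 0.06), which overlapped, and lowest in cerebrum MCT (7.29 ± 0.04), apart from all others. Tyrobp was highest in heart MCT (7.75 ± 0.64), above cerebrum MCT (6.88 ± 0.20) without overlap, while cerebrum MCT, cerebrum PS (6.77 ± 0.38) and heart PS (6.76 ± 0.35) overlapped. For Trem2 the one step without overlap was between heart MCT (6.09 ± 0.18) and heart PS (5.74 ± 0.17). For Csf1r, Aif1, C1qa, C1qb and Cd68 all neighbouring groups overlapped.

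Genes with the most similar course over arrays were found by Pearson's r with the mean of the 10 genes, each centred on its own mean, over the 6 arrays of a tissue. In heart they were Itm2a (0.989), Igsf6 (0.989), Lcp1 (0.983), Aqp8 (0.982), Glipr2 (0.980) and Gmcl1 (0.980), of 7269 transcripts ranked. Igsf6 was 5.63, 6.69 and 5.95 in heart PS arrays and 6.81, 6.45 and 5.83 in heart MCT arrays, and Lcp1, the leukocyte actin bundler L-plastin, 7.11, 7.78 and 7.24, against 8.03, 7.90 and 7.27. In both, PS 1, PS 3 and MCT 3 were low. In cerebrum they were Rps2 (0.984), Ccnd1 (0.981), Trim30a (0.979), Ccl5 (0.978), Ddhd1 (0.972) and Olfml3 (0.972), of 4105 ranked. Trim30a, an interferon-induced gene, was 4.60, 6.19 and 4.90 in cerebrum PS arrays, against 4.95, 5.02 and 4.86 in cerebrum MCT arrays, and the chemokine Ccl5 was 5.21, 6.15 and 5.34, against 5.39, 5.19 and 5.19. Olfml3, which marks microglia in brain, was 7.24, 8.88 and 7.45 in cerebrum PS arrays and 7.44, 7.36 and 7.37 in cerebrum MCT arrays. Each of these 3 was high in PS 2 alone, and all 6 values of r in cerebrum are descriptions over 6 arrays, with no test.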

How the data were processed

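The labels' protocols give total RNA of heart and cerebrum, labelled with biotin, on an Affymetrix whole-transcript platform. Per the submitters' processing notes, Expression Console made the values; its version and summary method, and the array's build, are not stated in the labels used. The deposited table was taken as log2 values (1.9 to 13.11, array medians 4.89 to 5) and left unchanged. No pair of arrays shared over 2.62% of its values. Gene symbols came from the supplied platform annotation.

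Comparisons used limma 3.58.1 (lmFit, eBayes) in R 4.3.3 on transcript clusters with 1 symbol whose mean in the fit reached the 40th percentile, with Benjamini-Hochberg adjustment over all tested clusters and a threshold of 0.05. All 10 genes were described on every array. From each list, genes past the threshold and up to 4 with the lowest p were to be named; others named beyond that rule, such as Spi1, Folr2, Adgre1, C3ar1, Ccr2, S100a8 and S100a9, were picked with their values in view. The 10 genes and the lists were chosen with earlier results of these data known. Likeness was ranked among tested clusters with an SD of at least 0.2. At equal replicate numbers, correlations of deviations from group means were 0.114, 0.102 and 0.287 between heart and cerebrum of MCT mice. They were 0.115, 0.0978 and 0.0543 in PS mice, where heart PS 2 and cerebrum PS 2 differ in sex pattern. These values do not show that equal numbers are the same mouse. Blocking on the number changed no call of the 10 genes for heart against cerebrum in MCT mice. With 3 arrays a group, the number of arrays limits the precision. The scripts were tested on simulated data. A log2 change of 0.5 was recovered for 10.9% of changed transcripts with PS against MCT in heart, 23.1% in cerebrum and 6.06% for the difference. For a change of 1 these shares were 76.9%, 76.2% and 59.1%. Of all simulated calls 7.94%, 3.97% and 2.91% were false. A gene that did not pass is therefore not shown to be unchanged.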

Additional observations from a re-analysis of the deposited data

Results flagged for a closer look

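The PS effect differed between heart and cerebrum for 3 of 59 tested genes of the macrophage lists (5.08%, where 1.52% of all transcripts passed), by the interaction term of limma over all 12 arrays (heart minus cerebrum). The lists hold genes that other cells make too, so these calls cannot be assigned to macrophages in bulk tissue. They were also chosen with earlier results of these data known, so the share is no test of the lists. Nt5e, which encodes the adenosine-making ecto-enzyme CD73, differed by 1.73 ± 0.25 (SE, adjusted p = 0.0125). It was 7.74, 7.98 and 7.74 in heart PS arrays, against 7.14, 7.27 and 7.12 in heart MCT arrays, and 4.63, 5.28 and 5.43 in cerebrum PS arrays, against 6.23, 6.32 and 6.04 in cerebrum MCT arrays. Axl, a receptor kinase of phagocytes, differed by 1.26 ± 0.23 (adjusted p = 0.0252). It was 8.66, 9.44 and 8.96 in heart PS arrays, against 8.13, 8.28 and 7.97 in heart MCT arrays, and 7.59, 7.51 and 7.52 in cerebrum PS arrays, against 7.97, 7.96 and 7.80 in cerebrum MCT arrays. The lipoprotein lipase gene Lpl differed by 0.94 ± 0.20 (adjusted p = 0.0422). It was 11.78, 11.73 and 11.74 in heart PS arrays, against 11.39, 11.51 and 11.66 in heart MCT arrays, and 6.02, 6.37 and 6.64 in cerebrum PS arrays, against 7.15, 7.03 and 6.97 in cerebrum MCT arrays. In each, every PS array lay above every MCT array in heart and below every MCT array in cerebrum. Over 20 alternatives the adjusted p ran from 0.00183 to 0.0587 for Nt5e, from 0.0155 to 0.0759 for Axl and from 0.00867 to 0.122 for Lpl. The call was lost in 2 of the 20 for Nt5e, 7 for Axl and 12 for Lpl. Without cerebrum MCT 1 none of the 3 passed (1.71 for Nt5e, 1.23 for Axl and 0.89 for Lpl). The female sex pattern went with PS on 5 of 6 PS arrays. In heart the mean of 6 endothelial markers was 8.94, 9.22 and 9.02 in PS arrays, against 8.20, 8.54 and 8.69 in MCT arrays, and that of 5 fibroblast markers was 7.46, 8.95 and 7.64, against 7.35, 7.55 and 7.30. In cerebrum the striatal and oligodendrocyte marker means were lower on every PS array than on every MCT array. The part of these markers in the result was not tested.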

How the results depend on the processing

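Of 747 values of the 9 tested genes recomputed under alternatives, 684 kept their direction and side of the threshold, 23 newly passed, 14 no longer passed and 26 changed sign, and the causes were not tested. The called list genes Nt5e, Axl, Lpl and Cfp lost their calls in 56 of 124 recomputed values. In cerebrum (PS against MCT) the sex pattern as a covariate turned Cx3cr1 (0.15), Csf1r (0.083) and Tyrobp (0.27). With 1 array left out, values there ran from −0.13 to 0.038 for Cx3cr1, −0.297 to 0.078 for Tyrobp, −0.042 to 0.378 for Trem2 and −0.043 to 0.202 for Cd68. In heart, C1qa turned with median centring (0.017) and ran from −0.178 to 0.227 with 1 array left out, and Cd68 turned with array weights (−0.12). For heart against cerebrum in MCT mice, Trem2 turned with quantile normalization (0.19) and ran from −0.167 to 0.0033 with 1 array left out. In PS mice, Tyrobp turned with quantile normalization (0.15) and median centring (0.047), and with 1 array left out it ran from −0.215 to 0.177 and C1qc from −0.105 to 0.46. For the difference of PS effects, the ranges with 1 array left out were −0.128 to 0.287 for C1qb and −0.06 to 0.303 for Cd68. The members passing were, in cerebrum, 1 with array weights and 3 with the sex covariate, against 0; in heart, 4 with array weights, 1 in a fit over all 12 arrays, 1 without MCT 3 and PS 3 together and 0 to 2 with 1 array left out, against 0; for heart against cerebrum in PS mice, 2 with quantile normalization and 2 to 5 with 1 array left out, against 4; and 0 to 2 for the difference. All transcripts passing in cerebrum (734) became 3407 with array weights, 279 over all 12 arrays, 189 with all transcript clusters and 0 to 1557 with 1 array left out. In heart (42) they became 6987, 1567 and 17 under the same settings, 1176 without MCT 3 and PS 3 and 4 to 3416 with 1 array left out. The difference (194) became 294 with median centring and 3 to 1629 with 1 array left out. Array weights did not reach their convergence tolerance in some fits. With the replicate block 9709 transcripts passed for heart against cerebrum in MCT mice. In the other comparisons the block gave 0 transcripts in cerebrum (limma adjusted p from 0.123 to 0.126 for Nt5e, Axl, Lpl and Cfp) and 88 in heart. It gave 9596 for heart against cerebrum in PS mice and 0 for the difference. In PS mice C1qb (limma adjusted p = 0.0188) and Cd68 (0.021) passed with it. Equal numbers were not shown to pair the arrays in any comparison. In PS mice the block set heart PS 2 beside cerebrum PS 2, which were of different mice, so the calls gained there are no support. Higher calls were 31.7% in cerebrum, 41.9% with quantile normalization and 17.6% with median centring, and for the difference 72.2%, 67.9% and 85.4%. Quantile normalization moved the median of heart against cerebrum in MCT mice by 0.147.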
